A study of Mus musculus with 12 samples.

Results

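The DNAJ family (J-domain proteins, also called HSP40) was described in soleus, a postural hind limb muscle, from its messenger RNA levels. Members were all genes of the deposited table whose mouse symbol is Dnaja, Dnajb or Dnajc followed by a number, and these were 43 of 30323 genes: 4 of class A, 13 of class B and 26 of class C. The tissue came from male C57BL/6N mice of the National Institute on Aging colony, 24 months old, which were housed singly and had running wheels for 8 weeks. Performance on the accelerating rotarod decided whether a mouse was called low functioning (LF) or high functioning (HF); the device is a rotating rod from which a mouse falls when it can no longer keep pace. Within each designation there was a control group and a laparotomy group, the latter having had abdominal surgery 5 days before collection. This gives 4 groups of 3 libraries, called by designation and treatment (for example LF control). No genetic change is named for any group, and whether each library is its own mouse is not stated, so p-values measure the spread between libraries, which may be technical. All groups had old age and wheel access in common.

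DNAJ proteins are co-chaperones: the J domain binds an HSP70 chaperone and speeds up its ATP hydrolysis, which closes HSP70 on an unfolded client. Class A members carry the J domain, a glycine and phenylalanine rich stretch and a zinc-binding domain, class B members lack the zinc-binding domain, and class C members have in common the J domain alone. In muscle fibres the family serves the turnover of contractile proteins, protein import into mitochondria, folding in the endoplasmic reticulum and chaperone-assisted autophagy, and changes in several members cause inherited muscle disease.

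Levels were given by the authors in TPM (a length-corrected share of each library's RNA), from which read depth cannot be recovered. TPM summed to between 956473 and 962830 per library over the table. Markers of soleus fibres were abundant in each library, with the slow myosin gene Myh7 at 2179 to 3339 TPM. The mitochondrially encoded genes took 26.4% to 39.7% of TPM. Because such a share changes what is left for other genes, each comparison was also made after median-of-ratios scaling, whose size factors ran from 0.948 to 1.17 in LF and from 0.836 to 1.05 in HF.

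Soleus held a broad set of DNAJ transcripts. Of the 43 members, 36 had a mean of at least 1 TPM over the 12 libraries and were tested: all 4 of class A, 9 of 13 in class B and 23 of 26 in class C. The 7 below it were Dnajb3, Dnajb7, Dnajb8 and Dnajb13, which are known mainly from testis or cilia, and Dnajc6, Dnajc14 and Dnajc22. Dnajb8 was listed at 0 in every library, and Dnajc14 was highest of the 7 at a mean of 0.476 TPM.

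The most abundant member was Dnaja4, a cytosolic class A member, at a mean of 117 TPM. Dnajc7, whose tetratricopeptide repeats bind HSP70 and HSP90, followed at 98.1 TPM, and Dnajc15, of the mitochondrial inner membrane, at 76.0 TPM. Next came Dnaja2 at 68.1, Dnajc21 at 64.8, Dnajb6 at 63.2, Dnajb4 at 61.8, Dnajc8 at 57.4, Dnajb5 at 48.7 and Dnaja3 at 48.7 TPM. The ranges of Dnaja4 and Dnajc7 over 12 libraries overlapped, and so did those of neighbours from Dnajc15 to Dnaja3. Their order is thus not separated from the spread, while the Dnajc7 range lay above that of Dnajc15. Dnajb1, the heat-inducible member for which HSP40 was named, was among the lowest of those tested, at 2.19 TPM. By class, A made up 23.8%, B 25.5% and C 50.7% of the family's summed TPM.

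**Figure D1:**
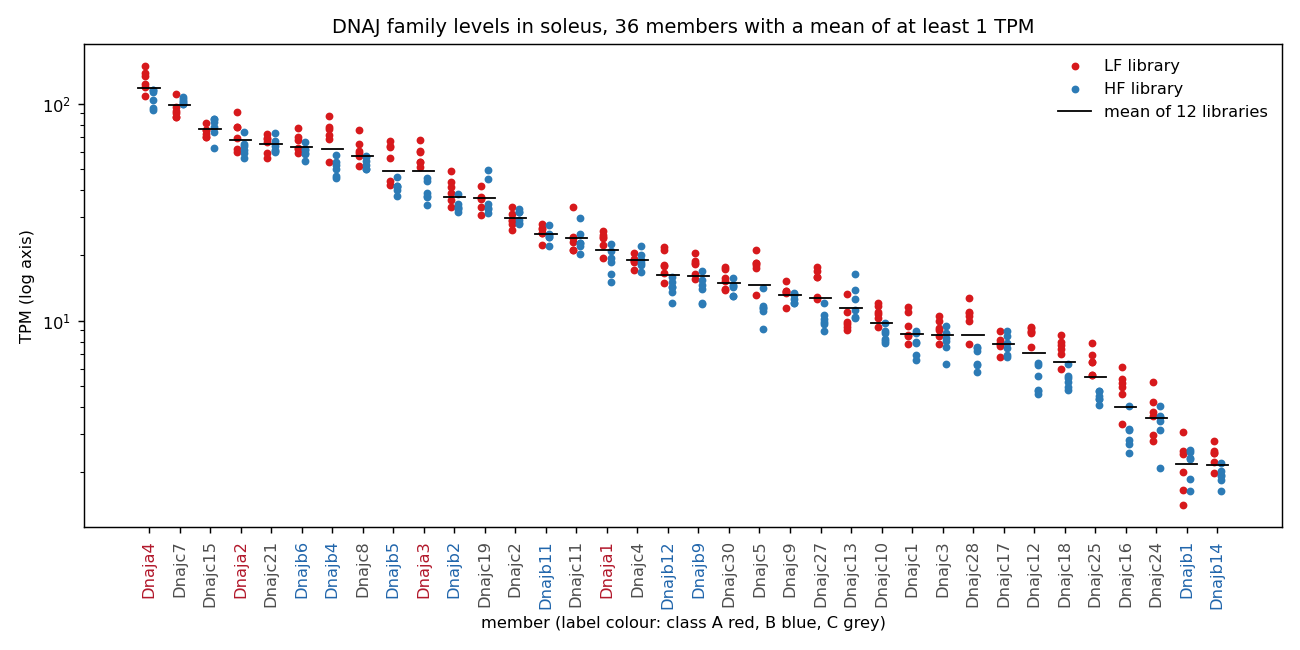
TPM of each of the 36 tested members (horizontal axis, ordered by mean) in the 6 LF libraries (red) and 6 HF libraries (blue) on a vertical log axis; the line is the mean of 12 libraries. Levels run from Dnaja4 at 117 TPM to Dnajb14 at 2.17 TPM, and for several members, such as Dnaja3 and Dnajc28, the blue points lie wholly under the red ones.

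The spread over libraries differed among members. The coefficient of variation over 12 libraries was lowest for Dnajb11, a soluble co-chaperone of the endoplasmic reticulum, at 7.11%, and for Dnajc2, which sits on ribosomes, at 7.46%. It was highest for Dnajc16 at 30.5%, followed by Dnajc12 at 26.9% and Dnajc5 at 26.6%. Part of the spread was common to members: the library LF laparotomy 3 had the highest value for 23 of 36 members and HF laparotomy 1 the lowest for 17. These libraries also had the highest (1.17) and the lowest (0.836) size factor, and after that scaling they were the highest for 10 and the lowest for 3.

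Summed by class, class A and class B had lower mean levels in HF than in LF as deposited, a difference given here without a test. The class A sum was 241 to 334 TPM with a mean of 283 ± 29.9 (SD, n = 6) in LF, and 213 to 256 TPM with a mean of 228 ± 17.2 (SD, n = 6) in HF. Class B summed to 302 ± 34.6 TPM in LF and 243 ± 13.02 TPM in HF, and class C to 555 ± 44.3 and 531 ± 26.7 TPM (SD, n = 6 each). The HF mean was thus 80.4% of the LF mean for A, 80.6% for B and 95.6% for C. With size factors the same shares were 92.3%, 92.7% and 109.8%, and that of the whole family went from 87.9% to 100.9%, so the direction for class C and for the family turned with the scaling. HF and LF ranges overlapped for all 3 class sums.

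**Figure D2:**
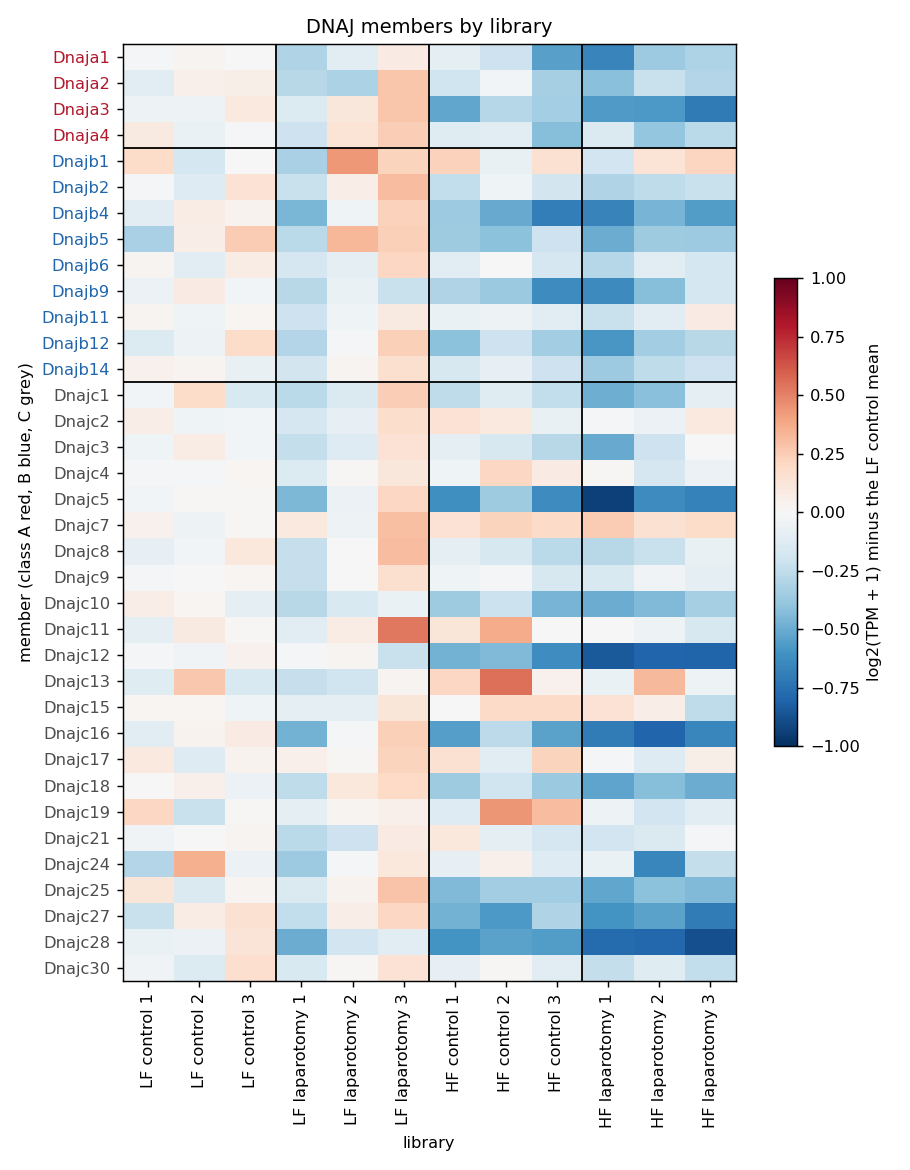
Each row is a tested member and each column a library; colour is log2(TPM + 1) minus the mean of the 3 LF controls, blue below and red above. Blue rows across the 6 HF libraries mark members such as Dnajc12, Dnajc28 and Dnajc5, while Dnajc7 and Dnajc13 are pale or red there; the column LF laparotomy 3 is red for most rows.

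HF was compared with LF averaged over control and laparotomy, which asks how soleus of the 2 performance designations differed. As deposited, 16 of 36 members passed the limma threshold (Benjamini-Hochberg adjusted p under 0.05 over 10757 genes) and all 16 were lower in HF. That is 44.4% of the members, beside 41.3% of all genes called in either direction, 35.3% lower and 6.03% higher. By class, the 16 were 3 of 4 in A, 5 of 9 in B and 8 of 23 in C. The median log2 difference of all genes was -0.15. Log2 differences below are given relative to that median unless stated otherwise, on the log2(TPM + 1) scale, with the standard error. The adjusted p tests the difference before the median is taken off. On that relative scale the members' median was -0.06, with -0.14 for A, -0.09 for B and 0.01 for C. In bulk muscle, fewer cells of a type and less RNA per cell cannot be told apart.

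Which members were called depended on the scaling. With size factors the all-gene median became 0.01, 40.5% of genes were called (19.9% higher and 20.6% lower), and 16 members were again called, 9 lower and 7 higher. The 9 lower were Dnajc12, Dnajc28, Dnaja3, Dnajc27, Dnajc5, Dnajc25, Dnajc16, Dnajc18 and Dnajb4, which were also among the 16 called as deposited. As deposited, each of these 9 calls held without each of the 12 libraries in turn. They comprised 1 class A, 1 class B and 7 class C members.

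Dnajc12, which binds the constitutive HSP70 Hspa8 and the aromatic amino acid hydroxylases (ENSMUSG00000036764, chr10:63382443-63410576, plus strand, GRCm38), had the smallest p. Dnajc12 was at 8.95, 8.78 and 9.35 TPM in LF controls, 8.89, 9.21 and 7.58 in LF after laparotomy, 6.22, 6.37 and 5.53 in HF controls and 4.59, 4.80 and 4.75 in HF after laparotomy. All 6 HF libraries lay below all 6 LF libraries, and the lowest 3 were the HF laparotomy libraries. Its difference was -0.48 ± 0.07 (limma adjusted p = 0.00031, and 0.00101 with size factors).

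Dnajc28 (ENSMUSG00000039763, chr16:91614254-91619026, minus strand) was at 10.9, 10.9 and 12.6 TPM in LF controls, 7.80, 9.91 and 10.5 in LF after laparotomy, 7.21, 7.58 and 7.45 in HF controls and 6.32, 6.23 and 5.78 in HF after laparotomy. Here too the 6 HF values were below the 6 LF values, and within LF the 3 laparotomy values were below the 3 controls. The difference was -0.41 ± 0.08 (limma adjusted p = 0.000548).

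Dnaja3, the class A member of the mitochondrial matrix that works with the mitochondrial HSP70 Hspa9 (ENSMUSG00000004069, chr16:4639989-4707695, plus strand), was the only class A gene among the 9. Dnaja3 was at 53.9, 54.0 and 59.8 TPM in LF controls, 50.8, 60.6 and 68.0 in LF after laparotomy, 38.7, 45.6 and 43.8 in HF controls and 37.4, 37.3 and 33.9 in HF after laparotomy. No HF value reached the lowest LF value. It differed by -0.40 ± 0.08 (limma adjusted p = 0.000578). Its exons overlap Vasn on the same strand (mean 1.82 TPM) and Coro7 on the other (3.79 TPM), which leaves its value somewhat uncertain.

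Dnajc27, a Rab-like small GTPase with a J domain at its end (ENSMUSG00000020657, chr12:4082583-4110606, plus strand), was at 12.8, 15.9 and 16.9 TPM in LF controls, 12.6, 15.9 and 17.6 in LF after laparotomy, 10.7, 9.84 and 12.1 in HF controls and 9.67, 10.2 and 8.93 in HF after laparotomy. The highest HF library was just under the lowest LF library. The difference was -0.39 ± 0.10 (limma adjusted p = 0.00145).

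Dnajc25, a membrane protein (ENSMUSG00000070972, chr4:58995062-59025573, plus strand), was the last of the 5 members in which all HF libraries were below all LF libraries. Dnajc25 was at 6.92, 5.59 and 6.41 TPM in LF controls, 5.59, 6.45 and 7.89 in LF after laparotomy, 4.37, 4.72 and 4.72 in HF controls and 4.08, 4.48 and 4.36 in HF after laparotomy, and HF values were close together. Its difference was -0.30 ± 0.09 (limma adjusted p = 0.00184). Its exons overlap the gene model Gm20503 on the same strand, which was listed at 0. These 5 are 13.9% of the tested members, beside 9.31% of all genes, and 0 members had all HF libraries above all LF libraries, beside 1.77% of all genes.

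For the other 4 of the 9, single libraries overlapped. Dnajc5, the cysteine string protein of synaptic and secretory vesicles (ENSMUSG00000000826, chr2:181520485-181555133, plus strand), was at 18.0, 18.5 and 18.4 TPM in LF controls, 13.1, 17.5 and 21.2 in LF after laparotomy, 11.6, 14.1 and 11.5 in HF controls and 9.09, 11.5 and 11.1 in HF after laparotomy. LF laparotomy 1 lay among the HF values and the other 5 LF libraries above them. The difference was -0.44 ± 0.11 (limma adjusted p = 0.00147). Dnajc16, of the endoplasmic reticulum membrane (ENSMUSG00000040697, chr4:141760189-141790931, minus strand), was at 4.57, 5.15 and 5.36 TPM in LF controls, 3.34, 4.96 and 6.10 in LF after laparotomy, 3.12, 4.02 and 3.16 in HF controls and 2.70, 2.46 and 2.83 in HF after laparotomy. Again LF laparotomy 1 fell within the HF range, and the difference was -0.39 ± 0.11 (limma adjusted p = 0.00276).

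Dnajb4, a cytosolic class B member close to Dnajb1 (ENSMUSG00000028035, chr3:152178511-152210302, minus strand), was at 68.8, 78.2 and 76.1 TPM in LF controls, 53.8, 72.0 and 87.2 in LF after laparotomy, 57.6, 52.1 and 45.6 in HF controls and 46.3, 53.5 and 50.1 in HF after laparotomy. It was the only one of the 9 above 60 TPM on average, and 1 LF library was within the HF range. The difference was -0.35 ± 0.11 (limma adjusted p = 0.00341). Dnajc18, of the endoplasmic reticulum membrane, was at 7.40, 7.68 and 7.03 TPM in LF controls, 6.00, 7.98 and 8.61 in LF after laparotomy, 5.53, 6.31 and 5.46 in HF controls and 4.80, 5.23 and 4.92 in HF after laparotomy. Here LF laparotomy 1 was again the one LF library within the HF range. Its difference of -0.26 ± 0.09 (limma adjusted p = 0.00322) was the smallest of the 9, and it no longer passed once a trend with transcript length and GC content was removed from each library (adjusted p = 0.0653). The median longest transcript of the 9 was 4698 bases, beside 3068 bases for the 36 tested members.

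**Figure D3:**
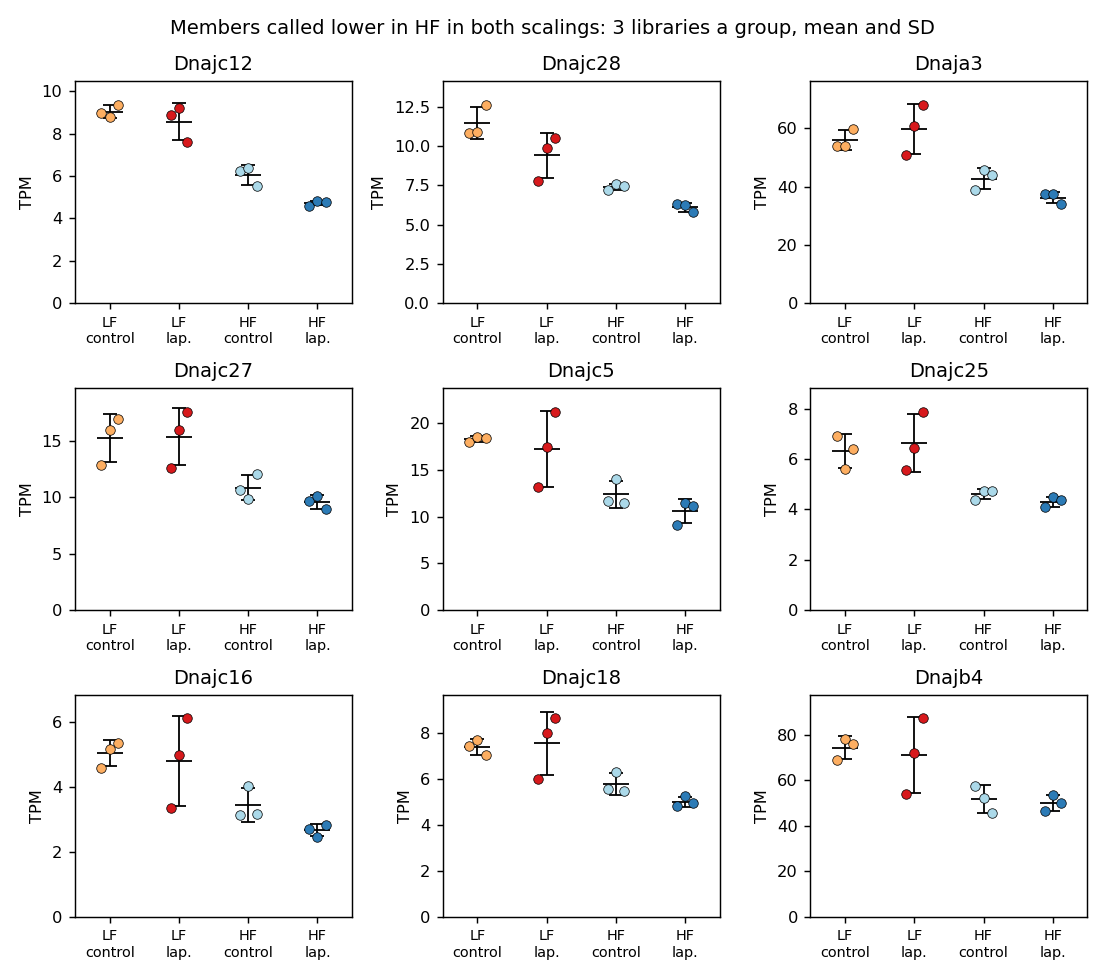
TPM (vertical axes, from 0) of the 9 members that were lower in HF under both scalings, by group; points are the 3 libraries of a group, with their mean and SD. In each panel both HF groups sit below both LF groups on average, and the LF laparotomy libraries are the most spread in most panels.

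Promoters were read because some DNAJ genes are known targets of heat shock factors. RefSeq promoter windows (GRCm38.p6, 250 bases before to 50 after a start) were found for 36 of the 43 members, 49 windows in all, and searched on both strands for a heat shock element core (GAA and TTC, in either order, with 2 bases between them) and for the endoplasmic reticulum stress element (CCAAT and CCACG with 9 bases between them). The heat shock core was in 6 of 36 members (16.7%), beside 17.0% of all genes with a window: Dnaja1, Dnaja4, Dnajb4, Dnajb6, Dnajc10 and Dnajc27. Of these, Dnajb4 and Dnajc27 were lower in HF under both scalings, and Dnaja1, Dnaja4 and Dnajc10 as deposited only. Dnajb6, with 2 cores in each window, was called under neither. Of all genes, 35.3% were called lower as deposited and 20.6% with size factors. A link between the core and the HF difference was not tested. The stress element was in Dnajc3 alone (2.78%, beside 0.137% of all genes). A match describes letters and is not a binding site. The 250 bases before a RefSeq start are shown for Dnajb4 (chr3:152193846-152194095, minus strand), Dnajc10 (chr2:80315216-80315465, plus strand) and Dnajc27 (chr12:4082324-4082573, plus strand), with the core in capitals, and for Dnajc28 (chr16:91619000-91619249, minus strand) and Dnaja3 (chr16:4683820-4684069, plus strand), which were lower in HF under both scalings and held neither motif. Each reads 5′ to 3′ on the gene's strand. Dnajb4 has more than 1 window, and the one shown is before a start inside the annotated gene. The window of Dnaja3 also lies inside its annotated gene, and 27 bases of the Dnajc28 window are in annotated exons. Dnajb4 and Dnajc10 share the same 8 letters, 14 and 182 bases before the start, and the core of Dnajc27 begins 213 bases before it.
Dnajb4: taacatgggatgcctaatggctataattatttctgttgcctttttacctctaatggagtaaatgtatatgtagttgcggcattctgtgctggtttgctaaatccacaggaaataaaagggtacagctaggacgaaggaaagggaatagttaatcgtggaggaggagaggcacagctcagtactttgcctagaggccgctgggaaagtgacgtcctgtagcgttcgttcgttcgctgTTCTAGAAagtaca
Dnajc10: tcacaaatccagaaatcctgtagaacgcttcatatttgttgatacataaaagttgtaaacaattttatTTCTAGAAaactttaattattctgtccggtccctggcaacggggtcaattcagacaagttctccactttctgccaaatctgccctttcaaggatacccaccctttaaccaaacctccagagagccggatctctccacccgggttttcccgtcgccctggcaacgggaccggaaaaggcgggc
Dnajc27: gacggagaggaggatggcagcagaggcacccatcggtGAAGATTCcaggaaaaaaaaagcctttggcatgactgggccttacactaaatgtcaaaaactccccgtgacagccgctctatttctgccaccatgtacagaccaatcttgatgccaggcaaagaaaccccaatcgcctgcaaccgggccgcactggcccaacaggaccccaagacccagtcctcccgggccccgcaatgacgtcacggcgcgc
Dnajc28: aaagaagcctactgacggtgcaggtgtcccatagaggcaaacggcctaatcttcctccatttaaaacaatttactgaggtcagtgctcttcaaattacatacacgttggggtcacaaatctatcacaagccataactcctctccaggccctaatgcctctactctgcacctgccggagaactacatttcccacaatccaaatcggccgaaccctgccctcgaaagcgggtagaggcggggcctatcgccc
Dnaja3: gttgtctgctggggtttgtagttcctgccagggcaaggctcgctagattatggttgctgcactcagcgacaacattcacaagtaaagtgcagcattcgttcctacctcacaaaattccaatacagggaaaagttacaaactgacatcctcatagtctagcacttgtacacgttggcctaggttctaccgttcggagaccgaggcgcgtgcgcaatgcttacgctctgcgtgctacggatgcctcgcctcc

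A further 7 members were called lower only in TPM as deposited, and for these the log2 difference as deposited is given first. It still holds the all-gene median and is not on the scale of the 9 above. Relative to all genes, the differences of these 7 ran from -0.27 to -0.07. In the endoplasmic reticulum, Dnajc10 (ERdj5), which reduces disulfide bonds, was at 12.1, 11.7 and 10.8 TPM in LF controls, 9.29, 10.2 and 10.9 in LF after laparotomy, 8.79, 9.78 and 8.06 in HF controls and 7.87, 8.19 and 8.91 in HF after laparotomy. It differed by -0.30 ± 0.07 (limma adjusted p = 0.00674), and by -0.12 with size factors (adjusted p = 0.0553). Dnajb9 (ERdj4), a partner of Hspa5 induced by unfolded proteins, was at 18.3, 20.4 and 18.8 TPM in LF controls, 15.6, 18.2 and 16.3 in LF after laparotomy, 15.4, 14.6 and 12.0 in HF controls and 11.9, 13.98 and 16.8 in HF after laparotomy. The difference was -0.33 ± 0.09 (limma adjusted p = 0.0124; 0.135 with size factors).

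Dnajb12, anchored in the endoplasmic reticulum membrane, was at 16.6, 17.8 and 21.1 TPM in LF controls, 14.8, 18.1 and 21.8 in LF after laparotomy, 13.6, 15.8 and 14.2 in HF controls and 12.0, 14.2 and 15.02 in HF after laparotomy. It differed by -0.35 ± 0.10 (limma adjusted p = 0.0144; 0.0625 with size factors). Its close relative Dnajb14 was at 2.49, 2.46 and 2.23 TPM in LF controls, 1.99, 2.46 and 2.79 in LF after laparotomy, 2.03, 2.20 and 1.93 in HF controls and 1.64, 1.85 and 1.93 in HF after laparotomy. The Dnajb14 difference of -0.21 ± 0.08 (limma adjusted p = 0.0408) was -0.07 ± 0.08 relative to all genes. With the length and GC trend removed, which also centres the genes, it was 0.08 (adjusted p = 0.257). Leaving out 1 library ended the call for 9 of the 12: any of the LF controls, numbers 2 and 3 of LF laparotomy, 1 and 3 of the HF controls, and 1 and 2 of HF laparotomy, with adjusted p up to 0.0914.

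Among cytosolic members, Dnajb5 was at 42.3, 56.1 and 64.0 TPM in LF controls, 44.0, 67.4 and 63.0 in LF after laparotomy, 41.5, 40.0 and 46.0 in HF controls and 37.6, 41.6 and 41.3 in HF after laparotomy. LF libraries spread widely, from 42.3 to 67.4 TPM, and HF libraries were within 37.6 to 46.0 TPM. The difference was -0.41 ± 0.12 (limma adjusted p = 0.0136; 0.119 with size factors). Dnaja1, a farnesylated general co-chaperone, was at 23.9, 24.7 and 24.1 TPM in LF controls, 19.5, 22.4 and 25.8 in LF after laparotomy, 22.6, 20.9 and 16.3 in HF controls and 15, 18.6 and 19.4 in HF after laparotomy. It differed by -0.31 ± 0.10 (limma adjusted p = 0.0238; 0.156 with size factors), and the call was lost when LF laparotomy 3 was left out, likewise HF control 3 and likewise HF laparotomy 1 (highest adjusted p = 0.063). Dnaja1 has a near-identical pseudogene copy, Gm15542, at 0.551 TPM, and overlaps Smu1 on the other strand.

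Dnaja4 was at 134, 119.6 and 124 TPM in LF controls, 109, 138 and 149 in LF after laparotomy, 115, 116 and 93.1 in HF controls and 113, 95.5 and 104 in HF after laparotomy. HF libraries reached 116 TPM, above the lowest LF library. The difference was -0.28 ± 0.09 (limma adjusted p = 0.0275; 0.368 with size factors). This call was lost on leaving out LF control 1, either of LF laparotomy 2 and 3, HF control 3, or number 2 of HF laparotomy (highest adjusted p = 0.0724). Its exons overlap Wdr61 on the other strand, which had a mean of 19.1 TPM.

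The 7 members called higher only with size factors had relative differences above 0 as deposited, but none passed there. Taking off the all-gene median acts much like that scaling, so this is no separate support. In TPM itself the HF mean was below the LF mean for Dnajb11 (24.67 against 25.6) and Dnajc21 (64.26 against 65.25). It was above the LF mean for Dnajc13, Dnajc7, Dnajc15, Dnajc2 and Dnajc4. Dnajc13, which controls sorting on endosomes, had the largest difference upwards: 9.07 to 13.3 TPM with a median of 9.74 in LF and 10.3 to 16.3 TPM with a median of 11.9 in HF. The ranges overlapped, and its difference was 0.41 with size factors (limma adjusted p = 0.00838) and 0.38 ± 0.12 relative to all genes as deposited (adjusted p = 0.116). Dnajc7 was at 92.2, 86.4 and 90.3 TPM in LF controls, 96.1, 86.6 and 111 in LF after laparotomy, 99.3, 105 and 102 in HF controls and 107, 99.6 and 102 in HF after laparotomy. In controls the 3 HF values were all above the 3 LF values, and after laparotomy LF laparotomy 3 was the highest of all. Its difference was 0.33 with size factors (limma adjusted p = 0.00284), and it overlaps Cnp and Nkiras2 on the other strand.

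Dnajc15, a subunit of the motor that pulls proteins into the mitochondrial matrix, was at 75.5, 75.7 and 72.3 TPM in LF controls, 70.1, 69.9 and 81.3 in LF after laparotomy, 74.2, 85.2 and 85.0 in HF controls and 82.5, 78.2 and 62.2 in HF after laparotomy. The difference with size factors was 0.26 (limma adjusted p = 0.0411). Dnajc21, which acts in maturation of the large ribosomal subunit, was at 66.3, 68.4 and 69.5 TPM in LF controls, 56.4, 59.0 and 72.0 in LF after laparotomy, 73.2, 63.9 and 60.4 in HF controls and 59.6, 61.4 and 67.1 in HF after laparotomy. Its ranges overlapped, and it differed by 0.17 with size factors (limma adjusted p = 0.0253). The other 3 were Dnajc2 at 0.23 (0.00314), Dnajc4 at 0.19 (0.0208) and Dnajb11 at 0.14 (0.0266), each as a log2 difference with size factors and its limma adjusted p. Dnajc2 was at 26.2 to 33.4 TPM with a median of 28.8 in LF and 27.9 to 32.7 TPM with a median of 30.3 in HF. Dnajc4 was at 17.1 to 20.6 TPM with a median of 18.9 in LF and 16.7 to 22.0 TPM with a median of 18.7 in HF. Dnajb11 was at 22.4 to 27.8 TPM with a median of 25.8 in LF and 22.2 to 27.6 TPM with a median of 24.5 in HF. For all 3 the TPM ranges in LF and HF overlapped.

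No call was made under either scaling for 13 members: Dnaja2, Dnajb1, Dnajb2, Dnajb6, Dnajc1, Dnajc3, Dnajc8, Dnajc9, Dnajc11, Dnajc17, Dnajc19, Dnajc24 and Dnajc30. Their relative differences ran from -0.10 to 0.19, with adjusted p of 0.0548 and above as deposited and of 0.074 and above with size factors. Dnaja2, a general cytosolic co-chaperone, was at 69.5, 77.7 and 77.9 TPM in LF controls, 61.8, 59.9 and 91.3 in LF after laparotomy, 65.0, 73.7 and 59.2 in HF controls and 56.0, 63.9 and 61.0 in HF after laparotomy. Dnajb6, which suppresses protein aggregation and is the gene of a limb-girdle muscular dystrophy, was at 67.9, 61.8 and 70.0 TPM in LF controls, 58.9, 62.5 and 76.9 in LF after laparotomy, 61.4, 66.2 and 59.0 in HF controls and 54.4, 61.5 and 58.6 in HF after laparotomy. In both, LF laparotomy 3 was highest and the other libraries overlapped. The differences relative to all genes were -0.05 ± 0.10 and 0.01 ± 0.08 (limma adjusted p = 0.14 and 0.175). The heat-inducible Dnajb1 was at 1.41 to 3.07 TPM with a median of 2.21 in LF and 1.63 to 2.54 TPM with a median of 2.32 in HF, a difference of 0.17 ± 0.13 (limma adjusted p = 0.911). For Dnajc19, which overlaps the abundant Fxr1 (140.1 TPM) on the other strand, the value is uncertain. The same limit holds for Dnajc1, Dnajc17, Dnajc30 and Dnajb6, which overlap another gene on the other strand, for Dnajb14, which overlaps Gm15460 on its own, and for Dnajc2, Dnajc8, Dnajc17, Dnajc19 and Dnajb6, which have near-identical copies.

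**Figure D4:**
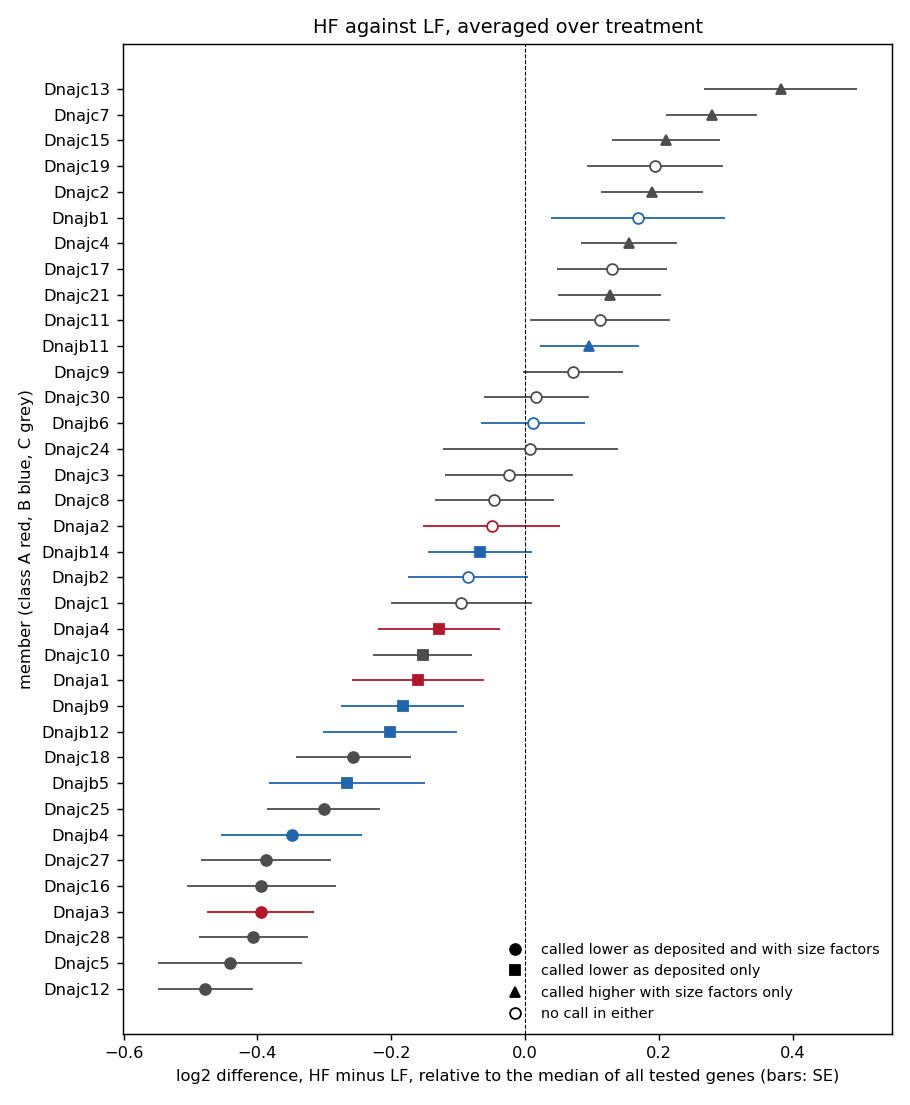
Log2 difference of HF minus LF, averaged over treatment and relative to the all-gene median (horizontal axis), for the 36 tested members (rows); bars are the SE, colour the class and the marker the call. Filled circles, the 9 members lower under both scalings, lie from -0.48 to -0.26, and triangles, higher with size factors only, from 0.10 to 0.38.

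Members were also counted by where the proteins work, to be read against all genes, of which 35.3% were called lower and 6.03% higher as deposited, and 20.6% lower and 19.9% higher with size factors. Of 10 tested members of the endoplasmic reticulum 7 were lower as deposited, and 3 were lower and 1 higher with size factors. Of 7 mitochondrial members 2 were lower as deposited, Dnaja3 and Dnajc28, and with size factors these 2 were lower and Dnajc4 and Dnajc15 were higher. Of 8 general cytosolic members in classes A and B, 4 were lower as deposited and only Dnajb4 with size factors. Of the vesicle members, Dnajc5 was lower and Dnajc13 was higher with size factors. None of the 4 ribosome and RNA processing members (Dnajc2, Dnajc8, Dnajc17 and Dnajc21) was called as deposited, and Dnajc2 and Dnajc21 were higher with size factors. The mitochondrial count as deposited and the cytosolic count with size factors were below the all-gene shares. The median relative differences were -0.17, 0.11, -0.11, -0.03 and 0.13 for these 5 lists in turn.

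The partners of DNAJ proteins were read from gene lists in the same fit, beside the same all-gene shares (35.3% lower and 6.03% higher as deposited, 20.6% and 19.9% with size factors). Of 9 HSP70 genes tested, 4 were lower in HF and 0 higher as deposited (median relative difference -0.09), and 2 lower and 1 higher with size factors. The mitochondrial Hspa9, partner of Dnaja3, was at 247 to 353 TPM in LF and 186 to 230 TPM in HF, with no overlap and a difference of -0.37 ± 0.08 (limma adjusted p = 0.00082). Hspa13 differed by -0.25 ± 0.10 (adjusted p = 0.00892). Hspa8, the constitutive HSP70, was at 976 to 1326 and 814 to 1079 TPM and differed by -0.15 ± 0.09 (limma adjusted p = 0.0241), a call lost with size factors (adjusted p = 0.266).

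Of 13 nucleotide exchange factors, which release ADP from HSP70, 7 were lower and 1 higher as deposited (median -0.14), and 4 lower and 2 higher with size factors. Hspa4l fell from 1.60 to 2.06 TPM in LF to 0.581 to 1.43 TPM in HF, with a difference of -0.51 ± 0.09 (limma adjusted p = 0.000437). Bag2 differed by -0.37 ± 0.09 (adjusted p = 0.00146) and Bag4 by -0.20 ± 0.08 (adjusted p = 0.00578). Bag1 was the one higher, at 0.45 ± 0.09 (limma adjusted p = 0.0129). Chosen after its values were seen, it ran from 171 to 245 TPM in LF and from 228 to 264 TPM in HF.

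Of 16 HSP90 chaperones and adaptors, 7 were lower and 0 higher as deposited (median -0.10), and 5 lower and 3 higher with size factors, against all-gene shares of 35.3% lower as deposited and of 20.6% lower and 19.9% higher with size factors. The same shares apply to the 3 lists that follow, and no list was tested as a whole. The leading genes were Stip1, which bridges HSP70 and HSP90, at -0.30 ± 0.08 (limma adjusted p = 0.00133), St13, an HSP70 cofactor, at -0.50 ± 0.12 (0.00153), and Fkbp4 at -0.30 ± 0.09 (0.00215). Chaperonins had 4 of 9 lower as deposited, with the mitochondrial Hspd1 at -0.30 ± 0.09 (limma adjusted p = 0.00223), and 1 lower and 2 higher with size factors. Small heat shock proteins had 1 of 7 lower, Hspb7 at -0.40 ± 0.08 (limma adjusted p = 0.000701), and with size factors 2 others were higher. Among 3 heat shock factors, Hsf2 was lower at -0.24 ± 0.08 (limma adjusted p = 0.00339), and with size factors Hsf4 was higher. Medians of these 3 lists relative to all genes were -0.03, 0.13 and 0.00.

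Outside the symbol rule, Sec63, Hscb and Gak encode J domains under other names. Sec63, of the protein channel into the endoplasmic reticulum, rose by 0.43 ± 0.09 (limma adjusted p = 0.0201), Hscb, of iron-sulfur cluster transfer, rose by 0.38 ± 0.09 (adjusted p = 0.0416), and Gak did not pass. Sec63 and Hscb also passed with size factors.

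Markers of some other cell types were called in the same comparison. As deposited, 3 of 10 endothelial markers were higher in HF, beside 6.03% of all genes higher and 35.3% lower. The summed level of the 10 endothelial markers was 197 to 269 TPM in LF and 236 to 321 TPM in HF. Of 7 tested Schwann cell markers 3 were higher, with sums of 65.9 to 81.0 and 81.1 to 257 TPM, and of 5 adipocyte markers 1 was higher, with sums of 298 to 385 and 378 to 614 TPM. Most of the adipocyte sum was Fabp4, at a mean of 378 TPM beside 21.5 TPM for Cfd and 3.86 TPM for Adipoq. Within controls Fabp4 was the adipocyte marker called in HF against LF, and Cfd, Cidec, Adipoq and Retn did not pass. The sum therefore mainly follows 1 gene. Fibroadipogenic markers had 1 of 8 higher (296 to 586 and 291 to 613 TPM). Macrophage markers had 0 of 7 called (17.2 to 47.2 and 18.3 to 53.7 TPM), erythroid markers 0 of 5 (974 to 3630.0 and 1268 to 3705 TPM), satellite cell and neutrophil markers 0 of 2 each (10.3 to 14.5 and 9.21 to 11.6 TPM, and 2.23 to 14.7 and 5.88 to 21.4 TPM), and no marker of these lists was at 0 in all libraries. Among 10 fibre markers, Myh2, Actn2 and Acta1 were lower and Tnnt1 was higher. With size factors, 4 endothelial, 6 Schwann cell, 1 adipocyte and 1 fibroadipogenic marker were higher and 0 were lower. Of the fibre markers 1 was then higher and 2 were lower, and no marker of the other lists was called. Beside these counts, 19.9% of all genes were higher and 20.6% lower with size factors. The fast myosin Myh4 was above 30 TPM in 3 libraries (LF control 3, LF laparotomy 1 and HF laparotomy 2), and without those libraries 17 members were called, all lower. The share of all genes called in that fit is not given here, so the count is not a result about the members. The part of other cell types in the DNAJ differences was not tested.

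Within controls alone, 6 members were called, all lower in HF (16.7% of 36), beside 10.5% of all genes called, 8.04% lower and 2.44% higher. They were Dnajc12 at -0.40 ± 0.10 (limma adjusted p = 0.0174), Dnajc28 at -0.46 ± 0.11 (0.0184), Dnajc5 at -0.43 ± 0.15 (0.0435), Dnajb4 at -0.41 ± 0.15 (0.0458), Dnaja3 at -0.28 ± 0.11 (0.0486) and Dnajb9 at -0.33 ± 0.13 (0.0499). In 19 of 36 members (52.8%) the 3 HF controls were all below the 3 LF controls, beside 31.3% of all genes. These calls rested on few libraries: 0 members passed without number 2 or 3 of the LF controls, without number 1 or 3 of the HF controls, or without the 3 libraries with Myh4 above 30 TPM. The count was 3 without LF control 1 or without HF laparotomy 3, and 2 without number 2 of either laparotomy group. Without LF laparotomy 1, which enters only the estimate of spread here, 11 passed, and without LF laparotomy 3, 10. Shares of all genes called in these fits are not given here, so a change in the count is not particular to the members. With size factors 5 were lower and 1, Dnajc7, was higher, beside 18% of all genes called, 8.92% lower and 9.05% higher.

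After laparotomy, 10 members were called, all lower in HF (27.8%), beside 26% of all genes called, 24.5% lower and 1.5% higher. Those that held without each library were Dnajc12 at -0.55 ± 0.10 (limma adjusted p = 0.00302), Dnaja3 at -0.51 ± 0.11 (0.00403), Dnajc28 at -0.35 ± 0.11 (0.00837), Dnajc27 at -0.43 ± 0.14 (0.00971) and Dnajc25 at -0.32 ± 0.12 (0.0117). With size factors Dnajc27 did not pass (adjusted p = 0.0539). The other 5 passed with all libraries but lost the call without at least 1: Dnajc5 at -0.45 ± 0.15 (limma adjusted p = 0.0119), Dnajc18 at -0.31 ± 0.12 (0.0131), Dnajc16 at -0.44 ± 0.16 (0.0143), Dnajb4 at -0.28 ± 0.15 (0.0358) and Dnajb5 at -0.31 ± 0.17 (0.041). Dnajb4 and Dnajb5 did not pass with size factors (adjusted p = 0.144 and 0.238). The count was 17 without LF laparotomy 1 and 6 without LF laparotomy 2, LF laparotomy 3 or HF laparotomy 1, and the shares of all genes in these fits are not given here. In 13 of 36 members (36.1%) the HF laparotomy libraries were all below the LF laparotomy libraries, beside 36.2% of all genes. With size factors 7 were lower and 4 (Dnajc7, Dnajc2, Dnajb11 and Dnajc21) were higher, beside 20% of all genes called, 10.7% lower and 9.31% higher.

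Laparotomy itself gave no called member. With limma, 0 of 36 members and 0 of 10757 genes (0%) passed for laparotomy against control averaged over LF and HF, in LF, in HF, or for the interaction, and 0 passed with size factors. At an unadjusted p under 0.05 the numbers were 2, 1, 2 and 0 members, of 747, 291, 665 and 331 genes in the same order. Without the filter on low levels 2, 5, 1 and 2 genes passed, none of them a member, and a fit of only the groups compared called 1 gene in LF and 3 in HF, again none a member.

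Members with the smallest p for laparotomy did not pass. Averaged over LF and HF these were Dnajc28 at -0.18 ± 0.08 (limma adjusted p = 0.683), Dnajc12 at -0.11 ± 0.07 and Dnajc10 at -0.05 ± 0.07, both with the same adjusted p. In LF they were Dnajc28 at -0.24 ± 0.11 (limma adjusted p = 0.9995), Dnajc10 at -0.14 ± 0.10 and Dnajb9 at -0.16 ± 0.13. In HF they were Dnajc12 at -0.18 ± 0.10 (limma adjusted p = 0.655), Dnajc19 at -0.21 ± 0.14 and Dnajc28 at -0.12 ± 0.11.

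The 3 HF laparotomy libraries were all below the 3 HF controls for Dnaja3, Dnajc12, Dnajc16, Dnajc18, Dnajc28 and Dnajc30 (16.7% of members, beside 16.6% of all genes; all above in 0.604% of all genes). In LF the same held for Dnajb9 and Dnajc28 (5.56%, beside 3.92%). Over the 36 members the relative differences ran from -0.24 (Dnajc28) to 0.20 (Dnajc11) in LF and from -0.21 (Dnajc19) to 0.14 (Dnajb9) in HF, with standard errors of 0.096 to 0.185. For the interaction, the difference of laparotomy in HF minus that in LF, the smallest p belonged to Dnaja3 at -0.23 ± 0.16, Dnajc11 at -0.31 ± 0.21 and Dnajc12 at -0.14 ± 0.14 (limma adjusted p = 0.9998 for each). No partner list had a called gene in any laparotomy comparison. Differences of the size of these standard errors were not detectable with 3 libraries a group.

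**Figure D5:**
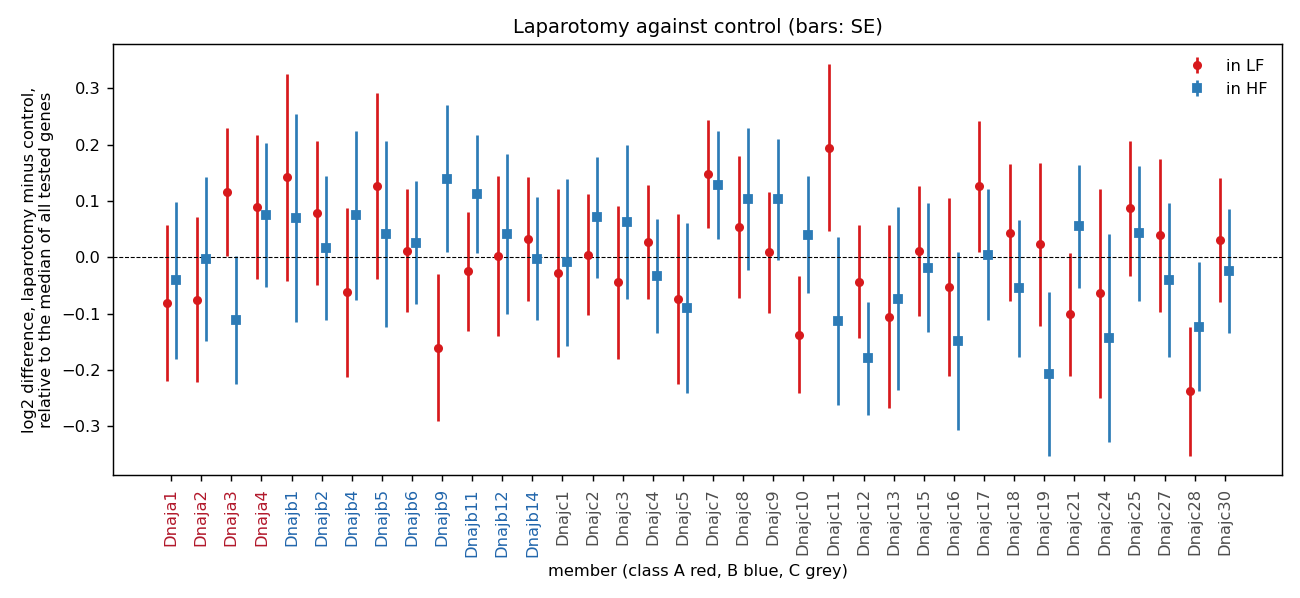
Log2 difference of laparotomy minus control relative to the all-gene median (vertical axis) for the 36 tested members in LF (red circles) and HF (blue squares); bars are the SE. Points scatter around 0 from -0.24 to 0.20 in LF and -0.21 to 0.14 in HF, and none passed the test.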

How the data were processed

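RNA of 12 soleus libraries, 3 in each of 4 groups, was extracted with QIAzol and RNeasy columns and made into polyA-selected stranded libraries, per the labels' protocols. The authors deposited gene-level TPM; kallisto, DESeq2 and GRCm38 are named in the submitters' processing notes, without roles. Strand setting, read counts and batches: not given in the sources used here. No counting interval was therefore computed. Symbols came from GENCODE M21 (29857 of 30323 identifiers matched, 466 did not).

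Tests used limma 3.58.1 in R 4.3.3 on log2(TPM + 1) of the 10757 genes whose mean reached 1 TPM. The fit had 4 group means, 8 residual degrees of freedom and a prior variance that followed the mean; tests were two-sided, with Benjamini-Hochberg adjustment over all genes in each of 7 contrasts at 0.05. Adding 1 before the log2 understates changes of low genes. The steps were tested on simulated data. Overlapping exons and near copies (at least 90% identity over 50% of a transcript) were searched in GENCODE M21. Alternatives tried were other pseudocounts (0.1 and 0.5), testing without the filter or with a minimum mean of 5 TPM, size factors, quantile normalization, TPM rescaled without 13 mitochondrially encoded and 10 highest genes, robust eBayes, only the groups compared, a Myh4 and Myh7 covariate, a correction for transcript length and GC content, each library left out in turn, and the fit without 3 libraries with Myh4 above 30 TPM. Values by library are given for members past the threshold and the 3 most abundant of each class; where none passed, the 3 with the smallest p are given, and up to 3 genes of each partner list. The members and lists were chosen with earlier results of these data known. Replicate numbers only name libraries. Proteins were not used here, and not every gene of the lists is reported here.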

Additional observations from a re-analysis of the deposited data

How the results depend on the processing

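The averaged HF against LF count of 16 members ranged from 13 to 19 over all alternatives, but its split between lower and higher depended on scaling: 9 and 7 with size factors, 9 and 8 with quantile normalization, and 9 and 5 after the length and GC correction. In controls, the count of 6 became 2 without the filter on low values, 10 with rescaled TPM and 0 without the 3 libraries with Myh4 above 30 TPM, and ran from 0 to 11 when single libraries were left out. After laparotomy, the count of 10 became 6 after the length and GC correction and ran from 6 to 17 without single libraries. Apart from size factors, the shares of all genes called under these alternatives are not given here. All laparotomy and interaction counts stayed at 0 members under every alternative run. Among single members, the Dnajb14 difference, -0.07 relative to all genes, reversed to 0.081 after the same correction, which centres the genes. The class sums in HF as a percent of LF moved with size factors to 92.3% for A, 92.7% for B, 109.8% for C and 100.9% for all. With rescaled TPM the same percents were 84.3%, 84.6%, 100.1% and 92.1%. The causes were not tested.

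Depth is unknown, since TPM keeps no read counts, and 3 libraries a group limit what can be called. No paired analysis was possible because the labels give no replicate numbers that tie libraries across groups; the numbers used only name libraries in order.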
